A study of Homo sapiens with 8 samples.

Results

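The genes described here are those of the unfolded protein response and the chaperones of the endoplasmic reticulum (ER), in cancer cells with a hairpin RNA against LHX2. They were chosen by name: 46 listed symbols were looked up in the results tables of KYSE30 and KYSE510, which are established human esophageal squamous carcinoma cell lines. The names stand for 45 genes, because VIMP is an older symbol of SELENOS and has no row of its own. The KYSE30 table, of 26008 genes, has a row for all 45, and that of KYSE510, of 25561 genes, for 44, without DERL3. In each line 44 of them have an adjusted p. DERL3 has 1 read in 1 of the 4 KYSE30 libraries and no adjusted p. Each line was sequenced as 2 libraries with a hairpin against LHX2 (shLHX2) and 2 with a control hairpin (shNC), 8 libraries in all. The hairpins were carried by a lentiviral vector in stably infected cells, and the labels give all libraries a wild-type genotype. The sources used here do not say whether the 2 shLHX2 libraries of a line carry 1 hairpin or 2, nor whether the libraries of a group came from separate cultures, and a p then measures the spread between these libraries alone, which may be technical.

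When unfolded proteins build up in the ER, membrane-bound sensors signal to the nucleus. IRE1 splices the mRNA of the transcription factor XBP1, PERK phosphorylates the translation factor eIF2 so that ATF4 is translated, and ATF6 is cut free of the membrane by proteases of the Golgi. The factors so released raise the transcription of chaperones, of enzymes that form disulfide bonds and of the machinery that passes misfolded proteins out to the proteasome. Secretory and epithelial tumour cells use the same genes to carry their load of membrane and secreted proteins.

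A known way in which ATF6 and XBP1 reach these genes is the ER stress response element. Both of its arrangements were searched: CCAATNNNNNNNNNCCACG, called ERSE, and ATTGGNCCACG, called ERSE-II, on both strands of the RefSeq promoter windows of GRCh38.p14, which run from 250 bases before to 50 bases after each gene's start. Of the members, 42 symbols have a window. ERSE was found in 0.0769% of all 35116 windows and in those of 8 members (XBP1, HSPA5, HSP90B1, CALR, CANX, PDIA6, ERO1B, CRELD2), and ERSE-II in 0.0541% and in those of 3 members (HYOU1, SDF2L1, HERPUD1). The window of HSPA5, chr9:125241294-125241593 on the - strand, is printed because HSPA5 had the smallest adjusted p of all members in KYSE510. Its ERSE, in capitals, begins 66 bases before the start of the gene.
HSPA5: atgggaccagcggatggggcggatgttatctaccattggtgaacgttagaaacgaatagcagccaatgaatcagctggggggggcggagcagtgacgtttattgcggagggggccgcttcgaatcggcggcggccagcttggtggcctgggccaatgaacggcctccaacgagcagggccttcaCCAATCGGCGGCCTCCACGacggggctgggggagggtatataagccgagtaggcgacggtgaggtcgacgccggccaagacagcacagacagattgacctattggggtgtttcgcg

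For comparison, the elements of 6 more members are printed with 10 bases on either side, with the match to ERSE or ERSE-II in capitals and in the orientation of the gene. The stretches are chr22:28800593-28800631 on the - strand for XBP1, chr12:103930206-103930244 on the + strand for HSP90B1, chr2:10812843-10812881 on the - strand for PDIA6, chr22:49918544-49918582 on the + strand for CRELD2, chr11:119057264-119057294 on the - strand for HYOU1 and chr16:56932015-56932045 on the + strand for HERPUD1. Those of XBP1, HSP90B1, PDIA6 and CRELD2 match ERSE, and those of HYOU1 and HERPUD1 match ERSE-II. The matches of CRELD2 and HYOU1 read on the opposite strand. Not printed are the matches of CALR, CANX, ERO1B and SDF2L1. HSP90B1 has a further ERSE that begins 89 bases before its start, and HYOU1 a further ERSE-II 185 bases before its start.
XBP1: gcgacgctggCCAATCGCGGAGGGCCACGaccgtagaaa
HSP90B1: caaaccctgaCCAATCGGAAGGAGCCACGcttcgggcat
PDIA6: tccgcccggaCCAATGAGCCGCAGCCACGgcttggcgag
CRELD2: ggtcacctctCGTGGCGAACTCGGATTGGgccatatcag
HYOU1: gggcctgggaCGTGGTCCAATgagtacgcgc
HERPUD1: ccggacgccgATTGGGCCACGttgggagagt

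Depth was alike in all libraries, at 17415000 to 22853000 reads each. The tables hold a mean over the 4 libraries of a line and no value per library. Reads per library were therefore worked back from the mean, the fold change and its standard error, which gave 99.9% of the genes tested in KYSE30, 99.3% of those in KYSE510 and all 44 tested members in both. Values below are normalized counts, reads divided by the size factor of the library, and the lines were normalized apart, so levels are set side by side only within a line. The 2 libraries of a group are called a and b by size factor, the larger first, since the tables do not tie them to the numbers of the labels. LHX2 itself had 32 and 50 reads in the shLHX2 libraries of KYSE30, against 99 and 112 in the shNC libraries (log2 fold change -1.45, standard error 0.34, adjusted p = 0.000123, Wald test). In KYSE510 LHX2 had 13 and 1 reads in the shLHX2 libraries, against 14 and 8 in the shNC libraries, and its interval of -3.25 to 1.32 on the log2 scale includes 0 as well as the value in KYSE30. Reads of mitochondrial genes were 7.14% of all in shLHX2 and 7.98% in shNC cells of KYSE30, and 5.34% in shLHX2 and 5.09% in shNC cells of KYSE510. Of 10 markers of squamous epithelium 9 were tested in each line, of which 6 fell and 0 rose in KYSE30, and 7 fell and 1 rose in KYSE510. TP63, the p63 factor of squamous epithelium, averaged 1646 normalized counts in shLHX2 and 3053 in shNC cells of KYSE30, and 6518 in shLHX2 and 8844 in shNC cells of KYSE510. Summed over the 9 markers with reads per library in KYSE30, they had 12575 and 12564 normalized counts in shLHX2 and 18259 and 18514 in shNC libraries, and over 7 in KYSE510 they had 19187 and 19099 in shLHX2 and 25534 and 25971 in shNC libraries. The KYSE510 sum leaves out KRT5 and KRT17, each with a mean above it, at 30950.0 and 29750.0. Their log2 fold changes there were -0.32 for KRT5 and -0.94 for KRT17. Of 12 markers of immune, endothelial and fibroblast cells 4 were tested in KYSE30 and 3 in KYSE510, where these summed to 351 and 339 in shLHX2 and 607 and 600.4 in shNC libraries of KYSE30, and to 980.3 and 970.2 in shLHX2 and 1128 and 1039 in shNC libraries of KYSE510. The leukocyte marker PTPRC averaged 6.01 over the 4 libraries of KYSE30 and 1.83 over those of KYSE510. What part these shifts have in the results below was not tested.

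Most members that changed were lower in shLHX2 cells. At an adjusted p under 0.05 by the Wald test of the deposited tables, 20 of the 44 tested members fell in KYSE30 (45.5%) and 2 rose, against 15.7% lower and 13.9% higher, or 29.6% in either direction, among all 15923 genes tested there. In KYSE510 25 of 44 fell (56.8%) and 0 rose, against 10.8% lower and 7.89% higher, or 18.7% in either direction, among all 12676. The changes were small: 6 members fell at least 1.5-fold in KYSE30 and 9 in KYSE510, where 4.72% and 2.24% of all tested genes did. The members' median fold change (log2) was -0.15 in KYSE30 and -0.22 in KYSE510, beside 0.0035 and -0.0017 over all genes tested. In bulk RNA, less mRNA per cell and fewer cells with the mRNA cannot be told apart.

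**Figure D1:**
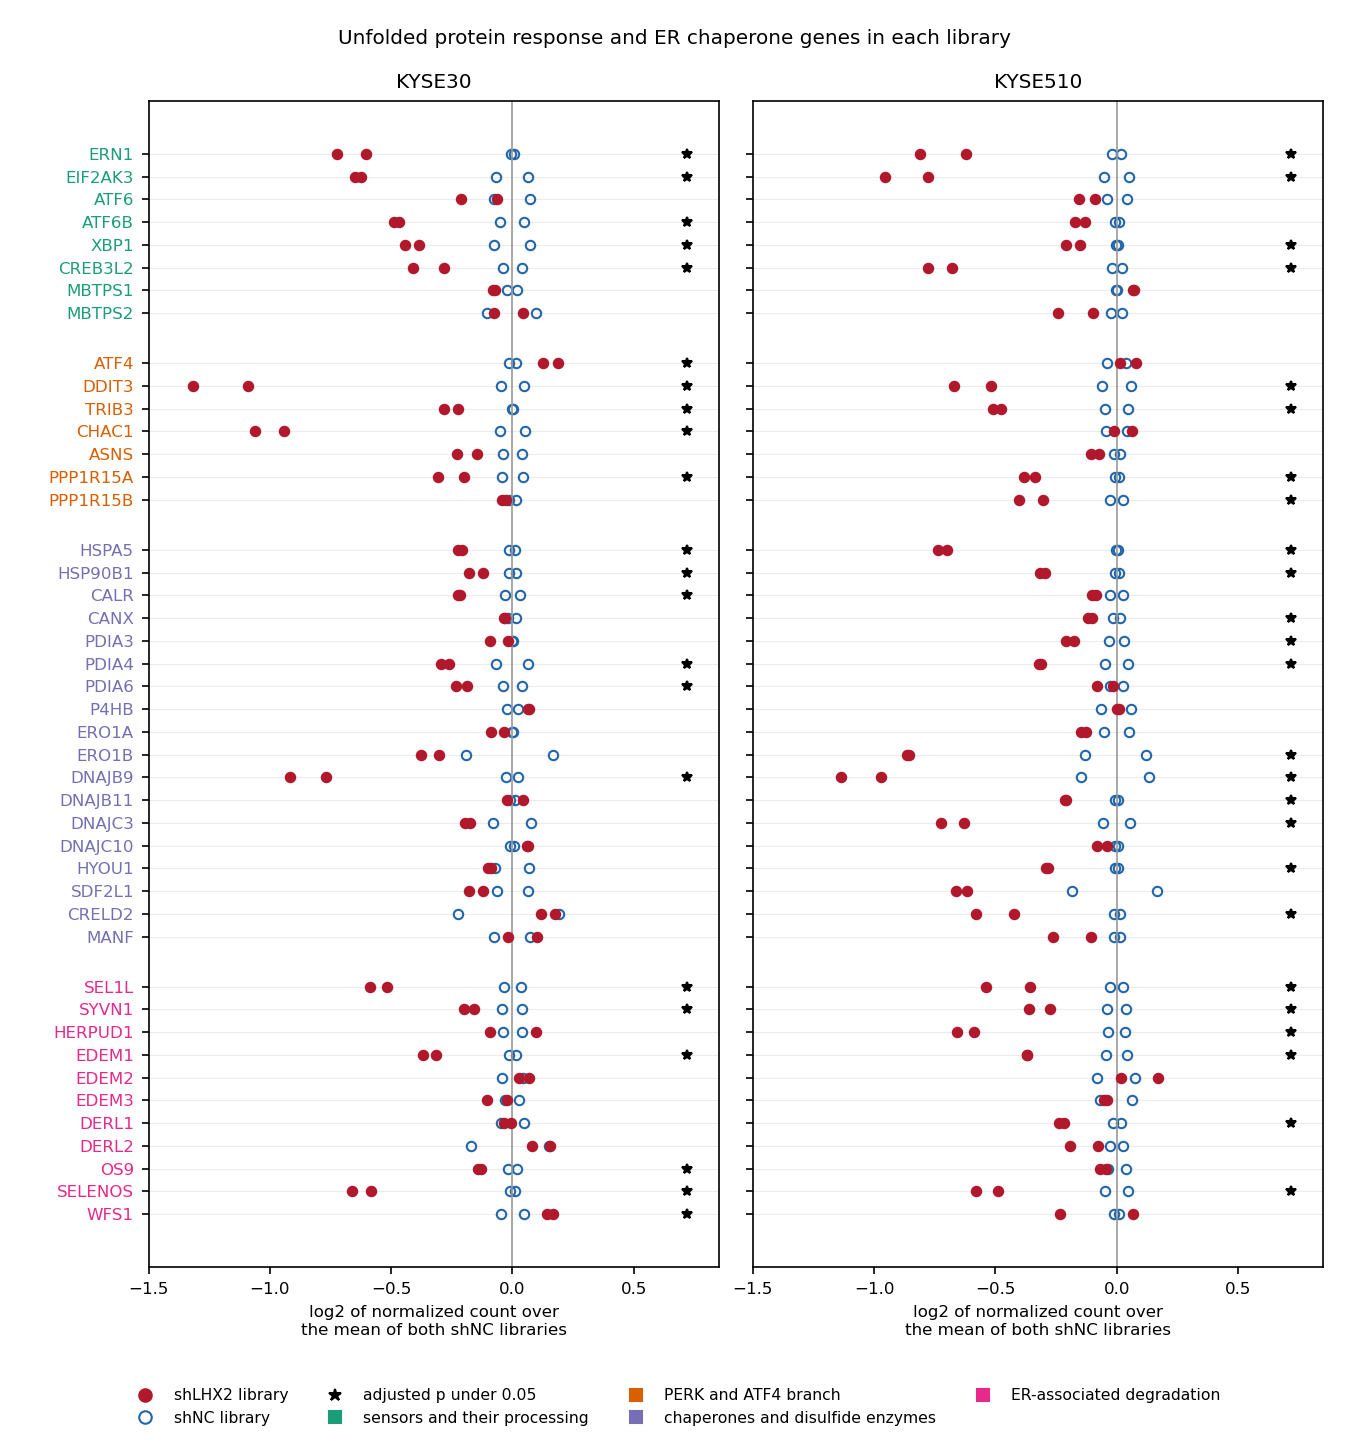
Each row is 1 of the 44 tested members and each point 1 library, placed by the log2 of its normalized count over the mean of both shNC libraries of the same line (shLHX2 filled red, shNC open blue); a star marks an adjusted p under 0.05. Filled points lie left of the open ones for 30 members in KYSE30 and 36 in KYSE510, and right of them for 4 and 1.

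Both shLHX2 libraries were below both shNC libraries for 30 of the 44 members in KYSE30 and 36 in KYSE510, where 34% and 34.5% of all genes with reads per library were. The opposite held for 4 members in KYSE30 and 1 in KYSE510, against 33.9% and 33% of all such genes. For every called member the libraries of the groups did not overlap. With 2 libraries in each group a call largely entails this, so it adds no separate support. Added over all members, normalized counts were 132991 and 131636 in the shLHX2 libraries of KYSE30, against 141344 and 145308 in the shNC libraries. In KYSE510 they were 153654 and 155002 in shLHX2, against 183440.0 and 180180.0 in shNC, so that the sum fell by 7.68% in KYSE30 and fell by 15.1% in KYSE510. Reference genes, 15 in number, had a log2 fold change of 0.125 (median) in KYSE30 and of 0.136 in KYSE510. Subtracting that median moves every gene down alike. Relative to it, 32 members were lower in KYSE30 and 37 in KYSE510 and 0 were higher in either line, against 27.4% lower and 7.46% higher in KYSE30 and 24.9% lower and 3.25% higher in KYSE510 among all genes tested.

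**Figure D2:**
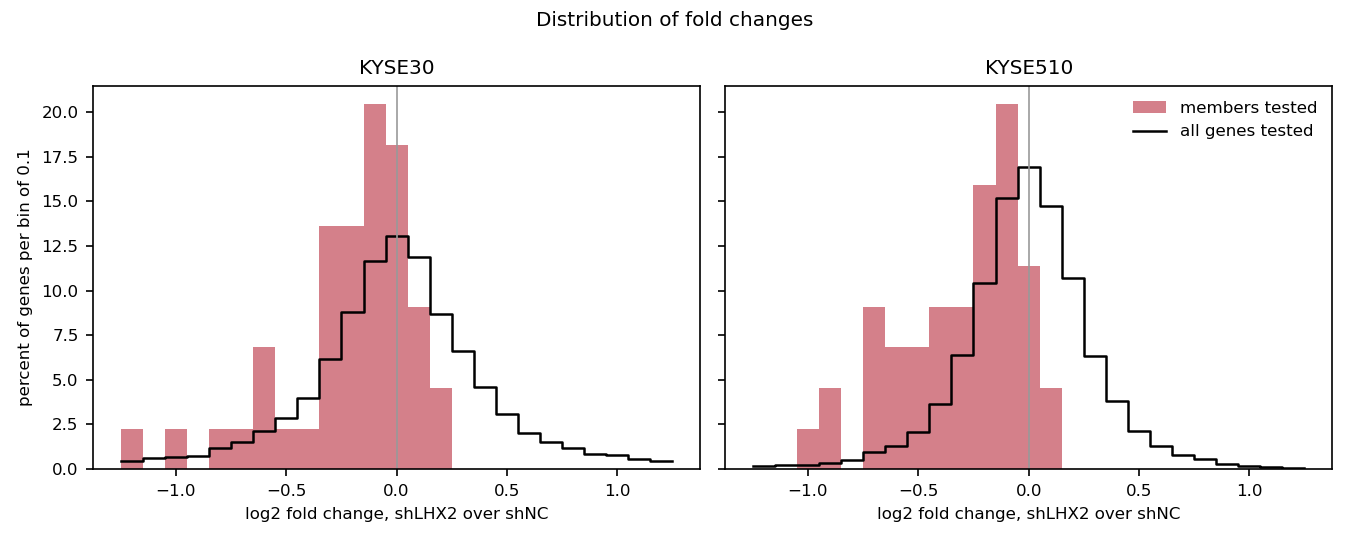
Percent of genes per bin of 0.1 in log2 fold change (shLHX2 over shNC), as red bars for the 44 tested members and as a black line for all tested genes, in KYSE30 (left) and KYSE510 (right). The bars lie mostly left of 0, around medians of -0.15 and -0.22, while the line centres on 0.

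In both lines 15 members fell: ERN1, EIF2AK3, XBP1, CREB3L2, DDIT3, TRIB3, PPP1R15A, HSPA5, HSP90B1, PDIA4, DNAJB9, SEL1L, SYVN1, EDEM1 and SELENOS. Among the 12311 genes tested in both lines 5.79% fell in both, and 4.61% rose in both, as 0 members did. All 4 groups into which the members fall, the sensors, the PERK and ATF4 branch, the chaperones and disulfide enzymes and ER-associated degradation, have genes among them. Calls in KYSE30 alone went to 5 more lower members (ATF6B, CHAC1, CALR, PDIA6, OS9), and calls in KYSE510 alone to 10 (PPP1R15B, CANX, PDIA3, ERO1B, DNAJB11, DNAJC3, HYOU1, CRELD2, HERPUD1, DERL1). ATF4 and WFS1 were higher in KYSE30 and not called in KYSE510. The remaining 12 passed the test in neither line: ATF6, MBTPS1, MBTPS2, ASNS, P4HB, ERO1A, DNAJC10, SDF2L1, MANF, EDEM2, EDEM3 and DERL2. Their log2 fold changes ran from -0.19 for ASNS to 0.12 for DERL2 in KYSE30, and from -0.64 for SDF2L1 to 0.10 for EDEM2 in KYSE510. SDF2L1 had 127 and 131 normalized counts in the shLHX2 libraries of KYSE510, against 225 and 176 in the shNC libraries, with an adjusted p of 0.0576.

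Among the sensors, the mRNAs of IRE1 and PERK fell in both lines while that of ATF6 did not pass the test in either. Of the 8 members in this group 5 fell in KYSE30 and 4 in KYSE510, and 0 rose. These were 62.5% and 50% of the group, against 15.7% and 10.8% lower among all genes tested. ERN1, which encodes IRE1 (ENSG00000178607, chromosome 17, 64039142 to 64130819 on the - strand of hg38), had 271 and 294 normalized counts in the shLHX2 libraries of KYSE30, against 449 and 446 in the shNC libraries. In KYSE510 ERN1 had 482 and 549 in shLHX2, against 858 and 835 in shNC. Neither line had an shLHX2 library near the shNC level, and the log2 fold change was -0.66 in KYSE30 (standard error 0.13, adjusted p = 1.65e-06) and -0.72 in KYSE510 (standard error 0.13, adjusted p = 3.74e-07). EIF2AK3, which encodes PERK (ENSG00000172071, chromosome 2, 88556741 to 88627576 on the - strand), had 403 and 397 in shLHX2 and 650.4 and 593 in shNC libraries of KYSE30. In KYSE510 the values of EIF2AK3 were 309.8 and 274 in shLHX2 and 511 and 550.0 in shNC. EIF2AK3 thus had its groups apart in both lines, at -0.64 on the log2 scale in KYSE30 (standard error 0.11, adjusted p = 7.9e-08) and -0.86 in KYSE510 (standard error 0.16, adjusted p = 1.82e-06), with a difference whose interval runs from -0.16 to 0.60.

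XBP1, the factor that IRE1 activates by splicing, is counted here per gene, so its spliced form cannot be told from the unspliced one. It had 697 and 724 normalized counts in shLHX2 and 899 and 995 in shNC libraries of KYSE30 (log2 fold change -0.41, standard error 0.089, adjusted p = 3.05e-05). In KYSE510 XBP1 had 3117 and 2997 in shLHX2 and 3454 and 3474 in shNC libraries (log2 fold change -0.18, standard error 0.059, adjusted p = 0.0166), and without shLHX2 library b its adjusted p in limma was 0.0581. CREB3L2, a membrane-bound factor released like ATF6, had 611 and 559.5 in shLHX2 and 723 and 763 in shNC libraries of KYSE30 (log2 fold change -0.34, standard error 0.097, adjusted p = 0.00228). In KYSE510 CREB3L2 had 464 and 496 in shLHX2 and 806 and 784 in shNC libraries (log2 fold change -0.73, standard error 0.13, adjusted p = 2.45e-07). Both genes had every shLHX2 library below every shNC library of its line. ATF6B, the paralog of ATF6, had 3069 and 3113 in shLHX2 and 4156 and 4455 in shNC libraries of KYSE30, and its fold change of -0.48 (standard error 0.048) had an adjusted p of 8.93e-22. In KYSE510 ATF6B had 1453 and 1413 in shLHX2 and 1584 and 1601 in shNC libraries and was not called (log2 fold change -0.15, adjusted p = 0.216). ATF6 itself had log2 fold changes of -0.13 in KYSE30 and -0.12 in KYSE510, and MBTPS1 and MBTPS2, the Golgi proteases that cut it, lay between -0.17 and 0.07 in both lines, none of them past the test.

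In the PERK and ATF4 branch the mRNA of ATF4 did not fall, while several genes that ATF4 is known to switch on did. Of the 7 members 4 fell in each line, and 1, ATF4, rose in KYSE30. The lower share was 57.1% in each line, against 15.7% of all genes tested in KYSE30 and 10.8% in KYSE510. ATF4 (ENSG00000128272, chromosome 22, 39519695 to 39522685 on the + strand) had 4019.8 and 3848 normalized counts in shLHX2 and 3494 and 3559 in shNC libraries of KYSE30 (log2 fold change 0.16, standard error 0.044, adjusted p = 0.00172). Relative to the reference genes that rise was 0.03, with an adjusted p of 0.625. In KYSE510 ATF4 had 12072 and 12662 in shLHX2 and 12303 and 11652 in shNC libraries, which overlap. ATF4 is controlled largely by translation, which mRNA counts do not read. DDIT3, which encodes the cell-death factor CHOP (ENSG00000175197, chromosome 12, 57516588 to 57521737 on the - strand), had the largest drop of all members in KYSE30, with 106 and 124 in shLHX2 against 255 and 272 in shNC libraries. In KYSE510 DDIT3 had 501 and 557 in shLHX2 and 829 and 764 in shNC libraries. Both lines had the groups well apart, at log2 fold changes of -1.20 in KYSE30 (standard error 0.19, adjusted p = 1.56e-09) and -0.59 in KYSE510 (standard error 0.13, adjusted p = 5.81e-05). Of the exon bases of DDIT3 39.6% overlap other genes, and of these MBD6 on the opposite strand had log2 fold changes of -0.64 and -0.56 in KYSE30 and KYSE510, and MARS 0.02 and 0.04. The sources used here do not say whether counting used strand, so reads of DDIT3 and of these neighbours cannot be told apart there.

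CHAC1, an enzyme that breaks down glutathione, fell in KYSE30 and not in KYSE510. It had 117 and 107 normalized counts in shLHX2 and 232 and 217 in shNC libraries of KYSE30 (log2 fold change -1.0, standard error 0.19, adjusted p = 1.7e-06). In KYSE510 CHAC1 had 1337 and 1408 in shLHX2 and 1387 and 1306 in shNC libraries, which overlap (log2 fold change 0.03, standard error 0.089). The difference between the lines was itself past the test, -1.03 on the log2 scale (standard error 0.21, adjusted p = 3.75e-05). TRIB3, a pseudokinase that binds ATF4 and holds it back, fell in both, with 1441 and 1501 in shLHX2 and 1752 and 1754 in shNC libraries of KYSE30 (log2 fold change -0.25, standard error 0.06, adjusted p = 0.000194). In KYSE510 TRIB3 had 3967 and 3887 in shLHX2 and 5709.5 and 5347 in shNC libraries (log2 fold change -0.49, standard error 0.053, adjusted p = 3.4e-18). PPP1R15A, the GADD34 subunit that lets the phosphatase undo eIF2 phosphorylation, had 897 and 833 in shLHX2 and 999 and 1061 in shNC libraries of KYSE30 (log2 fold change -0.25, standard error 0.082, adjusted p = 0.0102), and an adjusted p of 0.0544 in limma without shLHX2 library b. In KYSE510 it had 3128 and 3230.1 in shLHX2 and 4051 and 4099 in shNC libraries (log2 fold change -0.36, standard error 0.056, adjusted p = 6.94e-09). PPP1R15B, its constitutive counterpart, had 2530.2 and 2562 in shLHX2 and 2638 and 2582 in shNC libraries of KYSE30 and was not called there. It fell in KYSE510, with 2531 and 2709 in shLHX2 and 3279 and 3408 in shNC libraries (log2 fold change -0.35, standard error 0.064, adjusted p = 1.03e-06). ASNS, the asparagine synthetase, had log2 fold changes of -0.19 in KYSE30 and -0.09 in KYSE510, with adjusted p of 0.0814 and 0.297.

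**Figure D3:**
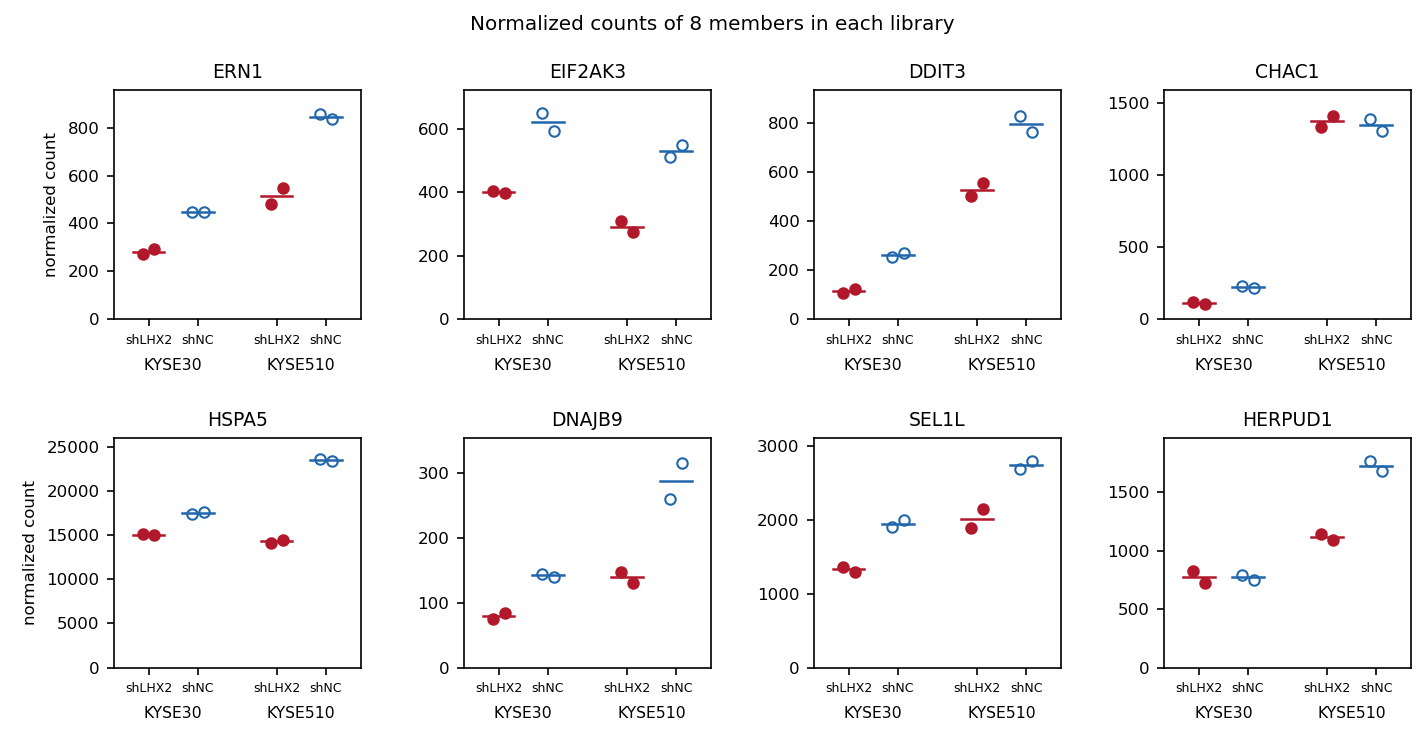
Normalized counts (linear axes from 0) of 8 members in each library, shLHX2 as filled red points left of shNC as open blue points, with the mean of each group as a bar, KYSE30 left and KYSE510 right in each panel. The groups are apart in both lines for ERN1, EIF2AK3, DDIT3, HSPA5, DNAJB9 and SEL1L, and in 1 line for CHAC1 (KYSE30) and HERPUD1 (KYSE510).

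The chaperones are the abundant end of the pathway. Per kilobase of exon, the 5 highest members in shNC cells of KYSE30 were CALR, HSPA5, CANX, HSP90B1 and P4HB, at 4577 to 2136 normalized counts per kilobase. In KYSE510 they were HSPA5, ATF4, CANX, HSP90B1 and CALR, at 6006 to 2331. Of the 18 chaperones and disulfide enzymes 6 fell in KYSE30 and 11 in KYSE510, and 0 rose in either. The lower share was 33.3% in KYSE30 and 61.1% in KYSE510, against 15.7% and 10.8% of all genes tested. Among all genes with a mean of at least 100 it was 21.2% and 12.7%. HSPA5, the central ER chaperone BiP (ENSG00000044574, chromosome 9, 125234853 to 125241330 on the - strand), had 15141 and 14954 normalized counts in the shLHX2 libraries of KYSE30, against 17327 and 17636 in the shNC libraries. In KYSE510 HSPA5 had 14084 and 14458 in shLHX2, against 23535 and 23405 in shNC. It fell by 13.9% in KYSE30 (log2 fold change -0.22, standard error 0.026, adjusted p = 1.08e-15) and fell by 39.2% in KYSE510 (log2 fold change -0.72, standard error 0.032, adjusted p = 1.69e-110). HSP90B1, the ER member of the HSP90 family (GRP94), had 10500.0 and 10113 in shLHX2 and 11323 and 11544 in shNC libraries of KYSE30. In KYSE510 HSP90B1 had 13505 and 13678 in shLHX2 and 16705 and 16884 in shNC libraries. Like HSPA5 it fell more in KYSE510, at -0.31 on the log2 scale (standard error 0.033, adjusted p = 1.81e-18), than in KYSE30, at -0.15 (standard error 0.031, adjusted p = 1.83e-05), and the tests of these differences are given with those of the lines.

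The J-domain proteins that hand substrates to BiP moved unequally. DNAJB9 (ERdj4), a known target of XBP1, had 75.1 and 83.4 normalized counts in shLHX2 and 144 and 139.5 in shNC libraries of KYSE30. In KYSE510 DNAJB9 had 147 and 131 in shLHX2 and 259 and 315 in shNC libraries, the largest drop of any member there. Its log2 fold change was -0.84 in KYSE30 (standard error 0.23, adjusted p = 0.0019) and -1.05 in KYSE510 (standard error 0.23, adjusted p = 5.55e-05). DNAJC3, which also restrains PERK, had 402 and 429.9 in shLHX2 and 640.5 and 691 in shNC libraries of KYSE510 (log2 fold change -0.68, standard error 0.14, adjusted p = 1.8e-05). In KYSE30 DNAJC3 had 449.8 and 443 in shLHX2 and 480.0 and 535 in shNC libraries and was not called. DNAJB11 (ERdj3) fell in KYSE510, with 1625 and 1619 in shLHX2 and 1885 and 1868 in shNC libraries (log2 fold change -0.21, standard error 0.077, adjusted p = 0.0367), and that p was 0.0732 when adjusted over every gene with a p. In KYSE30 the groups of DNAJB11 overlapped, at a log2 fold change of 0.01. DNAJC10, which reduces disulfide bonds, passed the test in neither line, at 0.06 in KYSE30 and -0.06 in KYSE510. HYOU1 (GRP170), the exchange factor that reloads BiP, had 3358 and 3338 in shLHX2 and 4067 and 4098 in shNC libraries of KYSE510 (log2 fold change -0.29, standard error 0.055, adjusted p = 4.13e-06), and 1877 and 1859.5 in shLHX2 and 1901 and 2089.6 in shNC libraries of KYSE30, where it was not called.

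The lectin chaperones of the calnexin cycle, which hold sugar-bearing proteins while they fold, passed the test in 1 line each. CALR had 10696 and 10629 normalized counts in shLHX2 and 12169 and 12677 in shNC libraries of KYSE30 (log2 fold change -0.22, standard error 0.031, adjusted p = 2.46e-11), and -0.09 on the log2 scale in KYSE510 (adjusted p = 0.163). CANX had 25666 and 25410.0 in shLHX2 and 27850.0 and 27309 in shNC libraries of KYSE510 (log2 fold change -0.11, standard error 0.029, adjusted p = 0.00133), and -0.03 on the log2 scale in KYSE30 (adjusted p = 0.332). In limma the adjusted p of CANX in KYSE510 was 0.0604 without shLHX2 library a and 0.0905 without library b. The difference between the lines did not pass its own test, with an interval of -0.24 to -0.02 for CALR and of 0.01 to 0.15 for CANX. PDIA3, the disulfide isomerase that works with these lectins, had 7101 and 6945 in shLHX2 and 8202 and 7846 in shNC libraries of KYSE510 (log2 fold change -0.19, standard error 0.044, adjusted p = 0.000165). It was not called in KYSE30, at -0.05 on the log2 scale.

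Of the other disulfide enzymes, PDIA4 fell in both lines. It had 1869.8 and 1915 normalized counts in shLHX2 and 2191 and 2395 in shNC libraries of KYSE30 (log2 fold change -0.28, standard error 0.061, adjusted p = 4.76e-05). In KYSE510 PDIA4 had 3376 and 3387 in shLHX2 and 4354 and 4069 in shNC libraries (log2 fold change -0.32, standard error 0.058, adjusted p = 9.81e-07). PDIA6 had 4534 and 4403 in shLHX2 and 5032 and 5306 in shNC libraries of KYSE30 (log2 fold change -0.21, standard error 0.042, adjusted p = 6.72e-06), and its groups overlapped in KYSE510 (log2 fold change -0.05). Exons of ATP6V1C2 lie opposite 25.2% of the exon bases of PDIA6, and ATP6V1C2 had 39 and 37 reads in shLHX2 and 254 and 211 in shNC libraries of KYSE30, so that without strand its reads cannot be told from those of PDIA6 there. P4HB, the most abundant disulfide isomerase here per kilobase in KYSE30, did not fall, with 11863 and 11851 in shLHX2 and 11149 and 11508 in shNC libraries (log2 fold change 0.07, adjusted p = 0.0734). In KYSE510 its groups overlapped. ERO1A and ERO1B are the oxidases that recharge these isomerases. ERO1B fell in KYSE510, with 102 and 102 in shLHX2 and 169 and 201 in shNC libraries (log2 fold change -0.86, standard error 0.27, adjusted p = 0.0098), and in KYSE30 had 34.3 and 36.2 in shLHX2 and 50.1 and 39.1 in shNC libraries, too few for a change of that size to be told from none (standard error 0.4). ERO1A had log2 fold changes of -0.06 in KYSE30 and -0.14 in KYSE510, with adjusted p of 0.409 and 0.0542. Among the small stress-induced proteins CRELD2 fell in KYSE510, with 351 and 316 in shLHX2 and 476 and 468 in shNC libraries (log2 fold change -0.50, standard error 0.16, adjusted p = 0.0126), and overlapped in KYSE30, while MANF lay at 0.05 in KYSE30 and -0.18 in KYSE510 and was not called.

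ER-associated degradation carries misfolded proteins through the ER membrane to the proteasome, and its core ligase complex fell in both lines. Of the 11 tested members 5 fell and 1 rose in KYSE30, and 6 fell and 0 rose in KYSE510. The lower share was 45.45% in KYSE30 and 54.55% in KYSE510, against 15.7% and 10.8% of all genes tested. SEL1L, the adaptor of the complex (ENSG00000071537, chromosome 14, 81471549 to 81533861 on the - strand), had 1359.7 and 1296 normalized counts in shLHX2 and 1898 and 1993 in shNC libraries of KYSE30. In KYSE510 SEL1L had 1886 and 2138 in shLHX2 and 2689 and 2793 in shNC libraries. The drop was -0.55 on the log2 scale in KYSE30 (standard error 0.063, adjusted p = 7.85e-17) and -0.45 in KYSE510 (standard error 0.076, adjusted p = 1.21e-07). SYVN1, the ubiquitin ligase HRD1 that SEL1L holds, had 1311 and 1350.2 in shLHX2 and 1461 and 1548 in shNC libraries of KYSE30 (log2 fold change -0.18, standard error 0.066, adjusted p = 0.0278). That call was lost in limma without shLHX2 library a (adjusted p = 0.0889) and without shNC library b (0.122). In KYSE510 SYVN1 had 1170.2 and 1244 in shLHX2 and 1548 and 1464 in shNC libraries (log2 fold change -0.32, standard error 0.09, adjusted p = 0.00347). EDEM1, which trims mannose from doomed glycoproteins, had 1150.1 and 1109 in shLHX2 and 1447 and 1415 in shNC libraries of KYSE30 (log2 fold change -0.34, standard error 0.067, adjusted p = 3.99e-06). In KYSE510 EDEM1 had 1581 and 1579.8 in shLHX2 and 1979 and 2106 in shNC libraries (log2 fold change -0.37, standard error 0.078, adjusted p = 3.53e-05). Its relatives EDEM2 and EDEM3 passed the test in neither line, between -0.06 and 0.10 on the log2 scale. SELENOS, a selenoprotein of the exit complex, had 331 and 313 in shLHX2 and 492 and 499.9 in shNC libraries of KYSE30 (log2 fold change -0.62, standard error 0.12, adjusted p = 1.58e-06), and 1003 and 942 in shLHX2 and 1453 and 1362 in shNC libraries of KYSE510 (log2 fold change -0.53, standard error 0.096, adjusted p = 6.8e-07).

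HERPUD1, a membrane protein that recruits the ligase and is strongly induced by ER stress, separated the lines. It had 825 and 723 normalized counts in shLHX2 and 793 and 750.4 in shNC libraries of KYSE30, which overlap. In KYSE510 HERPUD1 had 1145 and 1091 in shLHX2, against 1763 and 1678 in shNC, and fell by 35% (log2 fold change -0.62, standard error 0.087, adjusted p = 6.03e-11). DERL1, a channel component, fell in KYSE510 as well, with 3294 and 3337 in shLHX2 and 3924 and 3838 in shNC libraries (log2 fold change -0.23, standard error 0.056, adjusted p = 0.00065), and overlapped in KYSE30, and DERL2 was not called in either line. OS9, a lectin that brings glycoproteins to the ligase, fell in KYSE30, with 3450.3 and 3477 in shLHX2 and 3755 and 3859 in shNC libraries (log2 fold change -0.14, standard error 0.042, adjusted p = 0.0057), and not in KYSE510 (log2 fold change -0.06). WFS1, an ER membrane protein mutated in Wolfram syndrome, rose in KYSE30, with 2036 and 2074 in shLHX2 and 1787 and 1907 in shNC libraries (log2 fold change 0.15, standard error 0.058, adjusted p = 0.0299). That call did not hold relative to the reference genes (0.03, adjusted p = 0.757), nor in limma without shLHX2 library b (0.0687) or without shNC library a (0.178). In KYSE510 the libraries of WFS1 overlapped.

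Across the 44 members the fold changes of the lines went together loosely, with Pearson's r of 0.48 and Spearman's rho of 0.50, beside 0.41 and 0.42 across all 12311 genes tested in both. Genes of a pathway are not independent, and the lines share no libraries. Of the 44 members 8 differed between the lines at an adjusted p under 0.05, where 11.9% of all genes did. Whether the members' share departs from that of all genes was not tested. In 6 of the 8 members the fold change was lower in KYSE510. HSPA5 differed by 0.50 on the log2 scale (KYSE30 minus KYSE510, standard error 0.041, adjusted p = 5.25e-32) and HERPUD1 by 0.63 (standard error 0.13, adjusted p = 4.91e-05). DNAJC3 differed by 0.49 (standard error 0.18, adjusted p = 0.0482) and PPP1R15B by 0.32 (standard error 0.08, adjusted p = 0.00156). TRIB3 differed by 0.24 (standard error 0.081, adjusted p = 0.0293) and HSP90B1 by 0.16 (standard error 0.046, adjusted p = 0.0082). It was lower in KYSE30 for CHAC1 and for ATF6B, which differed by -0.33 (standard error 0.096, adjusted p = 0.00876). For DDIT3 the difference of -0.61 had an interval from -1.05 to -0.16 and an adjusted p of 0.0569.

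**Figure D4:**
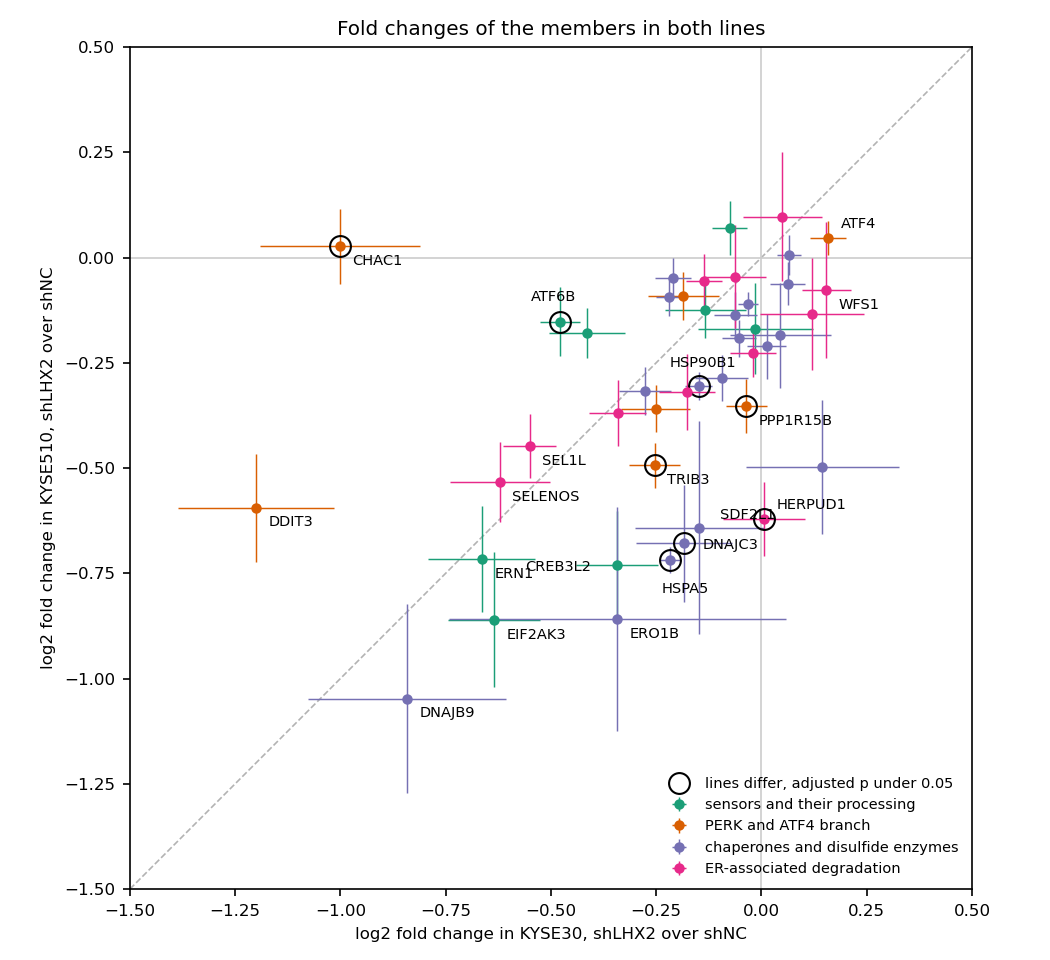
Log2 fold change (shLHX2 over shNC) of the 44 tested members in KYSE30 (x axis) and KYSE510 (y axis), with bars of 1 standard error, coloured by group; the dashed line marks equal change and black rings the 8 members that differ between the lines. Most points lie below 0 on both axes, with HSPA5, HERPUD1 and DNAJC3 below the dashed line and CHAC1 and ATF6B above it.

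The 11 members with an ERSE or ERSE-II in the promoter window are set beside the others as a description, without a test. In KYSE30 5 of the 11 fell, with a median log2 fold change of -0.15, and 15 of the 31 without either element fell, with a median of -0.18. In KYSE510 8 of the 11 fell, with a median of -0.31, and 15 of the 31 without fell, with a median of -0.18. Of those printed above, HSPA5, HSP90B1 and XBP1 fell in both lines, PDIA6 in KYSE30 alone, and CRELD2, HYOU1 and HERPUD1 in KYSE510 alone. Of those not printed, CALR fell in KYSE30 alone, CANX and ERO1B in KYSE510 alone, and SDF2L1 was called in neither. Searched in the same way, TGATGCAA, which ATF4 dimers can bind, was found on either strand in 0.866% of all windows and in those of CHAC1, PPP1R15B and HERPUD1. The motif TGACGTGG, which XBP1 can bind, was found in 0.729% and in those of DNAJC10 and HYOU1. In HYOU1 it overlaps the ERSE-II match that is not printed, 185 bases before the start.

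Outside the members, further genes that ATF4 is known to activate were mostly lower. Of 23 listed, 21 were tested in KYSE30, of which 11 fell and 2 rose, and 23 in KYSE510, of which 15 fell and 1 rose, and their medians were -0.14 and -0.27. The lower share was 52.4% in KYSE30 and 65.2% in KYSE510, against 15.7% and 10.8% of all genes tested. PHGDH, which opens serine synthesis, averaged 3093 normalized counts in shLHX2 and 4980.0 in shNC cells of KYSE30 (log2 fold change -0.69, adjusted p = 2.95e-51) and was 0.14 in KYSE510 (adjusted p = 0.0468), about the rise of the reference genes there. SLC7A11, the cystine transporter, averaged 7268 in shLHX2 and 9362 in shNC cells of KYSE510 (log2 fold change -0.36, adjusted p = 1.19e-14) and was not called in KYSE30. NUPR1, a stress-induced chromatin protein, averaged 1491 in shLHX2 and 2456 in shNC cells of KYSE510 (log2 fold change -0.72, adjusted p = 5.13e-20), and was below the tested level in KYSE30. The growth factor gene VEGFA averaged 7287 in shLHX2 and 9872 in shNC cells of KYSE510 (log2 fold change -0.44, adjusted p = 3.62e-25). In KYSE30 VEGFA averaged 943 in shLHX2 and 956 in shNC cells and was not called (log2 fold change -0.019, adjusted p = 0.913).

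The counts of the lists below stand beside the shares of all genes tested. These were 15.7% lower and 13.9% higher in KYSE30, and 10.8% lower and 7.89% higher in KYSE510. The subunits of eIF2 and its exchange factor, with the other kinases of eIF2, were split, 3 lower and 4 higher of 12 in KYSE30 and 0 lower and 1 higher of 12 in KYSE510. Translocon and signal peptidase genes, through which proteins enter the ER, gave 4 lower and 3 higher of 16 in KYSE30 and 4 lower and 0 higher of 16 in KYSE510. Among them SEC61A1, the pore itself, fell in both lines (log2 fold changes -0.16 in KYSE30, adjusted p = 0.000411, and -0.37 in KYSE510, adjusted p = 1.89e-13). SPCS3 of the same list rose in KYSE30 (log2 fold change 0.40, adjusted p = 7.98e-11) and was not called in KYSE510. Of the genes of N-glycan transfer and the calnexin cycle 5 fell and 1 rose of 16 in KYSE30, and 3 fell and 2 rose of 16 in KYSE510. The largest drop there was that of MAGT1, a subunit of the oligosaccharyltransferase, which averaged 502 normalized counts in shLHX2 and 1472 in shNC cells of KYSE30 (log2 fold change -1.55, adjusted p = 6.46e-68). In KYSE510 MAGT1 averaged 699 in shLHX2 and 1413 in shNC cells (log2 fold change -1.02, adjusted p = 5e-22). Next in KYSE510 was GFPT1, which supplies the sugar precursor and is a known target of XBP1, at -0.37 in KYSE30 (adjusted p = 1.72e-07) and -0.72 in KYSE510 (adjusted p = 3.58e-47).

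Other ER folding enzymes were evenly split, 5 lower and 5 higher of 22 in KYSE30 and 2 and 2 of 19 in KYSE510. The lower share was 22.7% in KYSE30 and 10.5% in KYSE510, beside 15.7% and 10.8% of all genes tested. RCN1, a calcium-binding protein of the ER lumen, rose strongly, to 4656 normalized counts in shLHX2, against 1473 in shNC cells of KYSE30 (log2 fold change 1.66, adjusted p = 3.89e-150), and to 2388 in shLHX2, against 1614 in shNC cells of KYSE510 (log2 fold change 0.57, adjusted p = 7.17e-12). Further ERAD genes gave 8 lower and 4 higher of 23 in KYSE30 and 3 lower and 1 higher of 23 in KYSE510, led by DNAJB12, a J-domain protein of the ER membrane, at -0.77 in KYSE30 (adjusted p = 1.84e-21) and -0.65 in KYSE510 (adjusted p = 9.94e-08). Of these ERAD genes 34.8% were lower in KYSE30 and 13.0% in KYSE510, the latter near the share of all genes. Chaperones and heat shock genes of the cytosol and mitochondria gave 6 lower and 3 higher of 14 in KYSE30 and 2 lower and 6 higher of 14 in KYSE510. HSPA8, the constitutive cytosolic relative of HSPA5, averaged 26030.0 normalized counts in shLHX2 and 19460.0 in shNC cells of KYSE30 (log2 fold change 0.42, adjusted p = 3.03e-74) and 12130.0 in shLHX2 and 8688 in shNC cells of KYSE510 (log2 fold change 0.48, adjusted p = 5.34e-33). Its rise in both lines ran opposite to the fall of HSPA5. The reference gene PGK1 rose too, at 0.42 in KYSE30 and 0.37 in KYSE510, beside reference medians of 0.125 and 0.136. HSPD1 rose in both lines, at 0.31 in KYSE30 (adjusted p = 3.84e-36) and 0.22 in KYSE510 (adjusted p = 6.71e-10). HSPA1B fell in KYSE30, at -0.28 (adjusted p = 1.95e-21), and rose in KYSE510, at 0.27 (adjusted p = 9.28e-05). The heat shock protein HSPB1 fell in both, at -0.41 in KYSE30 (adjusted p = 2.84e-17) and -0.63 in KYSE510 (adjusted p = 3.2e-18).

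**Figure D5:**
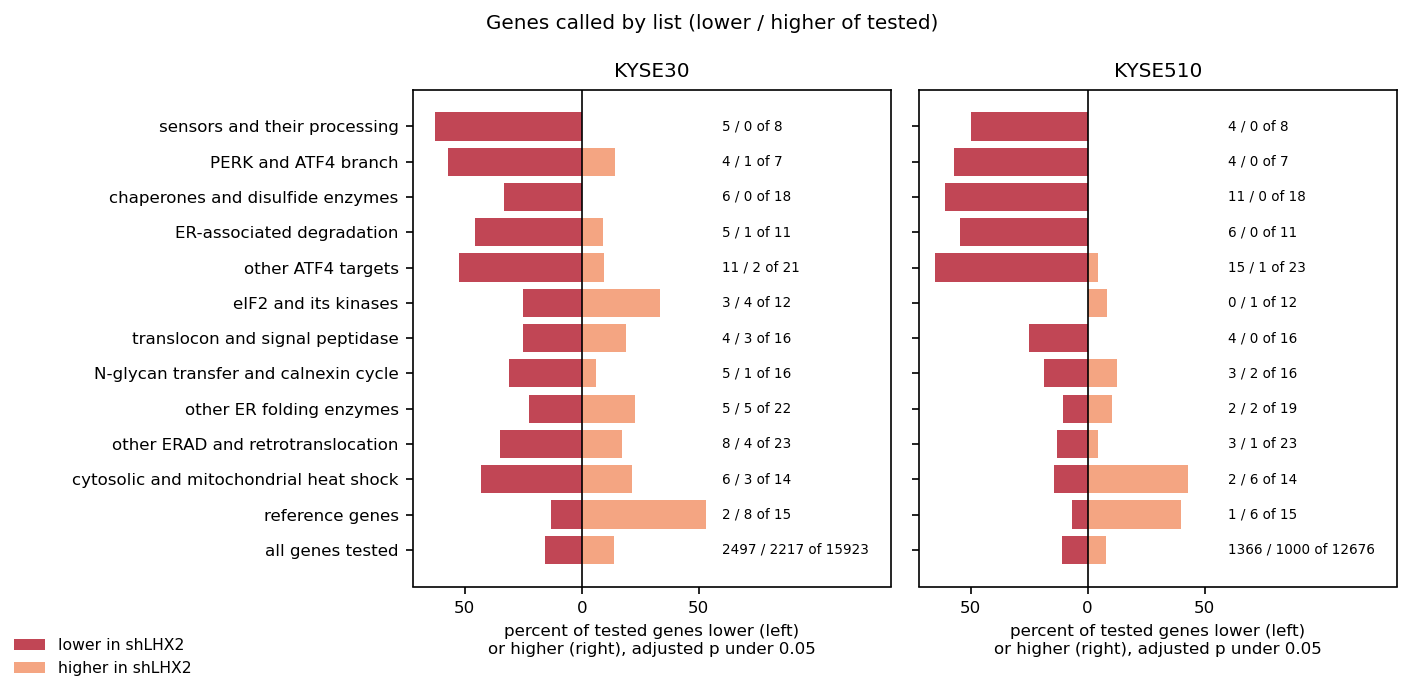
Percent of the tested genes of each list that were lower (left of 0) or higher (right of 0) in shLHX2 than in shNC at an adjusted p under 0.05, in KYSE30 and KYSE510, with the counts at the right of each panel. In KYSE510 the groups of members, at 50% to 61.1% lower, and the other ATF4 targets, at 65.2%, lie left of the other lists plotted, and 10.8% of all genes tested were lower there. In KYSE30 the groups of members do not stand apart, from 33.3% (chaperones) to 62.5% (sensors) lower. Heat shock genes were 42.9% lower there, further ERAD genes 34.8% and all genes tested 15.7%. The squamous markers, 66.7% lower in KYSE30 and 77.8% in KYSE510, are not plotted.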

How the data were processed

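Total RNA of 8 libraries was extracted with Trizol and sequenced after a TruSeq RNA kit. The submitters' processing notes name hg38 and DESeq with no version, and the sources used here give no aligner, counter or use of strand. For each line the authors deposited 1 results table of DESeq2 form, whose values per gene are these. The deposited mean level is a signal: counts divided by size factors, averaged over 4 libraries. The deposited log2 fold change, with its standard error, is that of shLHX2 over shNC. The deposited Wald statistic is a score, fold change over standard error. The deposited p-value is two-sided, and the deposited adjusted p-value is left out below a mean of 6.90 in KYSE30 and 34.3 in KYSE510.

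The members and lists were chosen with earlier results of these data known. The deposited test was read as it stands, called at an adjusted p under 0.05 with no fold limit. Checks showed that the statistic equals fold change over standard error and that Benjamini-Hochberg returns the adjusted p-values. Reads per library were worked back by matching whole reads to the 15 digits of the KYSE30 means and the 10 of the KYSE510 means and to the fold change of a negative binomial fit. The working back was tested on simulated data. The squared difference between replicates averaged 2.05 to 2.68 times that of sampling noise, so none was a copy. Lines were compared by the difference of their fold changes, KYSE30 minus KYSE510, divided by its standard error from both tables (two-sided normal test), with Benjamini-Hochberg over 12311 genes. Alternatives used limma 3.58.1 (voom) in R 4.3.3 on the worked-back reads. Intervals cover 95%. Exon lengths, overlaps and positions are those of GENCODE 29 on hg38, promoter windows those of RefSeq on GRCh38.p14. Named are all members, LHX2, and of the other lists up to 4 genes with the smallest adjusted p.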

Additional observations from a re-analysis of the deposited data

Results flagged for a closer look

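In 8 members the response to shLHX2 differed between KYSE30 and KYSE510 by the test of the difference itself, where 11.9% of all 12311 genes did. Values are the log2 fold change of KYSE30 minus that of KYSE510, so that a positive value means a lower fold change in KYSE510. They were 0.50 for HSPA5, 0.63 for HERPUD1, 0.32 for PPP1R15B, 0.16 for HSP90B1, 0.24 for TRIB3 and 0.49 for DNAJC3, and -1.03 for CHAC1 and -0.33 for ATF6B. All 8 passed the test again with the fold changes of each line taken relative to the median of all genes, relative to the reference genes, and over genes with a mean of at least 100. These settings could hardly move a difference. The medians were alike in KYSE30 and KYSE510, at 0.0035 and -0.0017 over all genes and 0.125 and 0.136 over reference genes. The limit on the mean leaves each fold change as it is. HSPA5 and HSP90B1 fell in both lines by different amounts, and TRIB3 likewise. HERPUD1, PPP1R15B and DNAJC3 were called in KYSE510 alone, and CHAC1 and ATF6B in KYSE30 alone. CHAC1 had 54.5 normalized counts per kilobase of exon in shLHX2 and 109 in shNC cells of KYSE30, and 667 in shLHX2 and 654 in shNC cells of KYSE510, levels set on scales that were normalized apart. LHX2 reads were too few in KYSE510 for the depth of the knockdown to be compared between the lines, and its part in these differences was not tested.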

How the results depend on the processing

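The number of members called, 22 in KYSE30 and 25 in KYSE510, depended most on the fold limit. With at least 1.5-fold it was 6 in KYSE30 and 9 in KYSE510, where 7.89% and 3.64% of all genes were called. With at least 1.2-fold, a limit chosen after seeing the data, it was 12 in KYSE30 and 20 in KYSE510, where 21.4% and 13.6% were. Fewer changes of that size remain by construction. Relative to the median of the reference genes it was 32 and 37, where the share of all genes called also rose, to 34.9% and 28.2%, against 29.6% and 18.7%. By limma on reads per library it was 24 and 32, where 37.5% and 38.6% of all genes were called. Adjusted over every gene with a p it was 22 and 24, where 16.5% and 7.79% of those genes were called. Leaving out each library in turn gave 21 to 23 in KYSE30 and 25 to 29 in KYSE510 in limma, where the lone library left in a group is assumed to vary like the others. Over genes with a mean of at least 100 the counts were 22 and 26, where 40.6% and 22.1% of such genes were called. Those called lower were 21.2% and 12.7%. That share matters because members are mostly well expressed, at a median level percentile of 79.4 in KYSE30 and 83.7 in KYSE510 among genes tested. Less the median of all genes the counts were 22 and 25, where 29.6% and 18.7% of all genes were called. The 8 differences between the lines became 9 over genes with a mean of at least 100 and 9 relative to the reference genes. No called member reversed its direction under any of these. The fold limits, the changed adjustment and the limit on the mean cannot change a sign, and limma used the same libraries. No paired analysis was possible because the worked-back libraries cannot be tied to the replicate numbers of the labels. Precision went with the level of a gene. In KYSE30 the 95% interval of the log2 fold change ran from -0.079 to 0.014 for CANX, with a mean of 26547. For ERO1B, with a mean of 39.9, it ran from -1.12 to 0.44.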
